A study of Homo sapiens with 9 samples.

Results

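Keratins and genes that mark the bile duct lineage were followed through 2 models of fat-laden liver cells. The members are 9 listed genes of the 19317 in the deposited table, matched by symbol: the keratins KRT8, KRT18, KRT7, KRT19, KRT23, KRT37 and KRT80, the transcription factor SOX9 and the adhesion protein EPCAM. They were chosen on measured values, for the higher KRT19 and KRT37 in oleic acid and the higher SOX9 in the lipogenic medium, so their levels and folds are a description and carry no p-value. All 9 passed the filter on low counts, KRT7 and KRT37 only through their counts in oleic acid. The cells were HepG2, an established line from a human hepatocellular carcinoma, whose genotype the labels give as WT in every group. Per the labels, 3 control samples (WT) were grown in RPMI medium. A further 3 samples (DNL, for de novo lipogenesis) were kept for 1 week in DMEM to which T0901317 at 10 µM, which activates liver X receptors, and insulin at 10 µg/ml had been added. The last 3 samples (OA) were held for 6 hours in DMEM with 25 µM oleic acid, which had been dissolved in 11% bovine serum albumin. All media contained 10% fetal bovine serum and 1% antibiotics. Basal medium, added compounds and time differ together between the groups, and albumin was added only to OA, so their effects cannot be told apart. All 9 samples are 1 cell line, and no label says whether replicates came from different cultures, so the p-values reflect sample-to-sample spread that could be purely technical.

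Keratins build the intermediate filaments of epithelial cells, and each filament pairs an acidic type I chain with a basic type II chain. Hepatocytes make only the simple pair KRT8 and KRT18, whereas bile duct cells add KRT7 and KRT19, which is why pathologists use KRT7 and KRT19 to tell duct from hepatocyte. SOX9 is a transcription factor of the developing bile duct and of liver progenitor cells, and EPCAM is a surface adhesion protein of the same cells. In steatohepatitis, KRT8 and KRT18 can collapse into inclusions called Mallory-Denk bodies together with the cargo receptor p62 and ubiquitin.

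Total estimated counts were between 7836520 and 43043347 per library, and the shallowest 2 were OA replicates 3 and 1. The cells expressed hepatocyte markers, all 9 of which reached a mean of 1 CPM (counts per 1000000, scaled between libraries) in a group. Such markers do not identify the line. Their summed level was 41716 to 43251 CPM in WT, 75562 to 77607 CPM in DNL and 13394 to 15283 CPM in OA. APOB was the largest part, at 30206 ± 782 CPM in WT. HNF4A did not follow the sum in DNL, at 481 ± 25.0 CPM against 567 ± 13.7 in WT. Of 9 cholangiocyte markers, 5 of them not members, 7 reached 1 CPM in a group, while CFTR, a chloride channel of the duct, had no count in any library and SCTR, the secretin receptor, stayed at or below 0.439 CPM. Some fibroblast markers stood apart in OA. The summed level over all 8 listed was 71.0 to 77.0 CPM in WT and 90.5 to 92.6 CPM in DNL. In OA replicates 1, 2 and 3 it was 99.0, 233 and 1106 CPM. COL1A1, COL1A2, COL3A1 and VIM had OA means of 26.2 to 214 CPM, against at most 0.990 CPM in any WT or DNL library. Below, fibroblast markers are these genes. PDGFRB was lower in OA than in WT, at 4.77 ± 2.64 against 9.93 ± 1.51 CPM. LUM stayed at or below 0.713 CPM. DCN measured 2.73 ± 0.721 CPM in OA against 1.58 ± 0.658 in WT, and ACTA2 101 ± 55.9 against 61.3 ± 0.967. The 7 squamous markers summed to 304 to 363 CPM in OA against 38.2 to 50.5 CPM elsewhere, most of it SFN, with KRT5 and KRT1 at 0 in every library. In bulk samples, fewer cells of a type and less RNA per cell cannot be told apart.

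**Figure D1:**
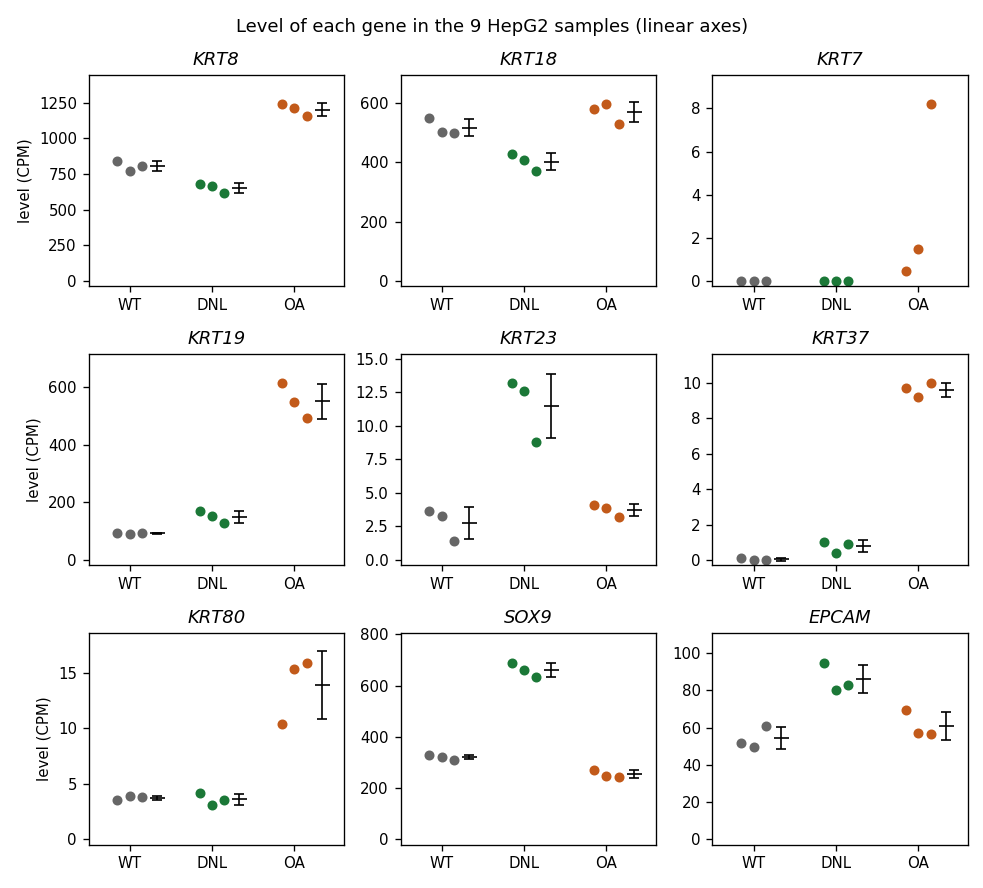
Level of each gene in CPM (linear axes) in the 3 replicates of WT, DNL and OA, replicates 1 to 3 from left to right, with the mean and SD as a bar and whiskers for all genes except KRT7. KRT19 and KRT37 are highest in OA, SOX9 and KRT23 are highest in DNL, and KRT7 is at 0 outside OA and uneven within it.

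The simple keratin pair was lower in DNL, and in OA KRT8 was higher while KRT18 overlapped WT. KRT8, the type II partner (chromosome 12, 52897187 to 52949954 on GRCh38), measured 843, 773 and 805 CPM in WT replicates 1, 2 and 3. It measured 680, 664 and 613 CPM in DNL and 1238, 1211 and 1155 CPM in OA. The 3 groups did not overlap, and OA stood 1.49-fold above WT (log2 fold change 0.57, SE 0.0479) while DNL stood below it (log2 fold change -0.31, SE 0.0478). KRT18, the type I partner (chromosome 12, 52948871 to 52952901), measured 550, 503 and 497 CPM in WT. It measured 428, 406 and 370 CPM in DNL and 580, 595 and 530 CPM in OA. DNL lay below WT with no overlap (log2 fold change -0.36, SE 0.0614), whereas OA and WT overlapped (log2 fold change 0.14, SE 0.0615). The 2 partners did not keep step, with 1.56 ± 0.0489 KRT8 counts per KRT18 count in WT, 1.63 ± 0.0341 in DNL and 2.12 ± 0.0745 in OA (SD, n = 3). In GENCODE release 29 the KRT8 gene model overlaps KRT18 on the opposite strand. Of the distinct 31-base words in KRT18 transcripts, 28.1% also occur in other genes, 65 of which are pseudogenes, and for KRT8 the share is 18.9%, so both counts are uncertain to the extent that the estimator assigned such reads.

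KRT19, the duct keratin that can pair with KRT8 in place of KRT18, was the abundant member that differed most. It lies in the type I cluster (chromosome 17, 41523617 to 41528308). WT replicates 1, 2 and 3 measured 95.1, 89.2 and 92.2 CPM, DNL 170, 153 and 128 CPM, and OA 613, 547 and 493 CPM. The groups did not overlap, and OA was 5.98-fold above WT (log2 fold change 2.58, SE 0.110) and 3.66-fold above DNL. DNL was 1.63-fold above WT. Within OA, KRT19 was lowest in replicate 3, the library with the most fibroblast marker RNA, and the log2 fold change of OA against WT was 2.49 to 2.65 when each library was left out in turn. Of its 31-base words, 6.42% occur in another gene.

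Expressed per kilobase of the principal transcript, the make-up of the type I pool changed from mostly KRT18 to about equal parts of KRT18 and KRT19. KRT19 was 16.2% to 17.2% of the 4 type I members in WT, 27.6% to 30.2% in DNL and 50.3% to 53.7% in OA. In OA, KRT19 reached 397 ± 43.4 CPM per kb, which overlapped KRT18 at 364 ± 22.0 CPM per kb, whereas in WT it stood at 66.3 ± 2.14 against 331 ± 18.8 CPM per kb. The type I total was 398 ± 21.0 CPM per kb in WT, 372 ± 34.8 in DNL and 769 ± 61.0 in OA. KRT8 made up over 98% of the type II members in each library (98.4% at the lowest), and the type II total was 381 ± 16.5, 308 ± 16.6 and 571 ± 17.1 CPM per kb in WT, DNL and OA. Type II chains per type I chain, as transcripts, went from 0.956 ± 0.0258 in WT to 0.830 ± 0.0343 in DNL and 0.744 ± 0.0378 in OA. With exon union length in place of transcript length, a setting chosen after seeing the data, the KRT19 share was 19.7% ± 0.613 in WT, 33.2% ± 1.41 in DNL and 56.0% ± 1.89 in OA, and KRT8 then stood below KRT18 in WT, at 117 against 161 CPM per kb. The ratio of type II to type I was then 0.588 ± 0.0156 in WT, 0.495 ± 0.0221 in DNL and 0.426 ± 0.0242 in OA. Its size thus depends on the length used, while the order of the groups was the same. Only members enter these pools, so KRT10 is left out.

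**Figure D2:**
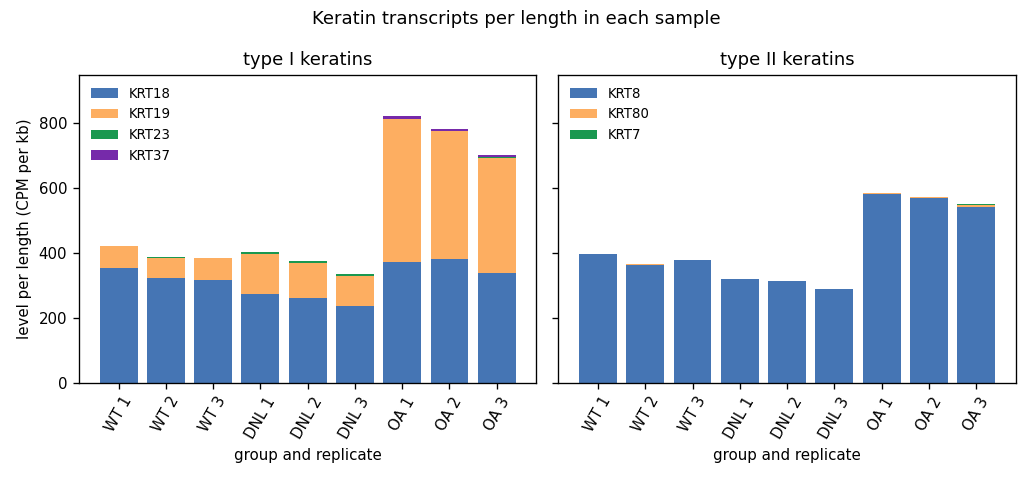
Stacked levels per length (CPM per kb of principal transcript) of the type I members (left) and type II members (right) in each of the 9 samples. KRT19 takes 50.3% to 53.7% of the type I bar in OA against 16.2% to 17.2% in WT, and KRT8 fills nearly all of each type II bar.

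KRT37, a type I keratin of the hair family (chromosome 17, 41420753 to 41424523), was near 0 in control cells and even across the OA samples. Its estimated counts were 5, 0 and 0 in WT, which is 0.115, 0 and 0 CPM. DNL replicates measured 1.02, 0.399 and 0.914 CPM and OA replicates 9.71, 9.19 and 9.98 CPM. The groups did not overlap, and the OA samples differed among themselves by a coefficient of variation of 4.14%. From 486 counts in OA against 5 in WT, the ratio was 190 with an exact 95% interval of 80.7 to 586, and from 61 counts in DNL it was 17.1 (6.94 to 54.5), both covering counting error only. All 5 WT counts came from replicate 1, and without it OA was at least 179-fold and DNL at least 16.2-fold higher, against a floor of 3 counts over the group. KRT38, a related keratin named after its values were seen, shares 22.8% of the 31-base words of KRT37, and it had 0 counts in all OA libraries and at most 0.291 CPM in a DNL library. In WT, KRT38 had 3 counts in replicate 1, the library with all 5 WT counts of KRT37, and 0 in replicates 2 and 3. Whether reads were exchanged between the 2 genes was not tested. The longest identical run between the open reading frames of KRT37 and KRT38, 135 bases from base 918 to 1052 of the KRT37 frame of 1350 bases (GENCODE release 29, GRCh38), is shown because reads inside it cannot be assigned to either gene by sequence alone.
KRT37 and KRT38 shared run: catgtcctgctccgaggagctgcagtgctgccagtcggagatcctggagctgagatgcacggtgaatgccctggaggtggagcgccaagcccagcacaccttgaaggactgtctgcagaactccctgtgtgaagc

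Of the 9 members, KRT8 and KRT37 had an entry in the RefSeq promoter table (GRCh38.p14). The 250 bases before the KRT37 start, chr17:41424586-41424835 on the minus strand, are printed because KRT37 had the largest ratio between groups among members with counts in every group.
KRT37 promoter: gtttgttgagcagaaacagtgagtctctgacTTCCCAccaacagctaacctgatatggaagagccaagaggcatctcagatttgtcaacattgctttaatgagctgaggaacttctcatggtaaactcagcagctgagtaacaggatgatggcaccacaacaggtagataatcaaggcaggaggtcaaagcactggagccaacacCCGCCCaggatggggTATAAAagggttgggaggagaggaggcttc
Capitals mark matches, on either strand, to 3 of the 8 motifs searched, and no 2 matches overlap. TATAAA, the TATA box, lies from -30 to -25 relative to the RefSeq start and occurs in 10.7% of 35116 promoter windows of the same length. The Sp1 box GGGCGG lies on the opposite strand from -45 to -40 (42.6% of windows), and TGGGAA, the core bound by the Notch factor RBPJ, lies on the opposite strand from -219 to -214 (20.8%). No match was found to AP-1 (TGANTCA, 6.57% of windows), the antioxidant response core (TGACNNNGC, 10.9%), the LXR direct repeat DR4 (0.014%), a SOX core (ACAATG, 9.29%) or a sterol element (TCACNCCAC, 0.883%). The KRT8 window, chr12:52926470-52926719 on the minus strand, lies inside the KRT8 gene model given above and not at its upstream end. In that window none of the 8 had a match. Other possible KRT8 starts were not searched.

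KRT7, the type II duct keratin (chromosome 12, 52232520 to 52252186), had no count in the 6 WT and DNL libraries. In OA it measured 0.474, 1.48 and 8.19 CPM in replicates 1, 2 and 3, from 6, 45 and 69 counts. OA was at least 78.0-fold above WT and at least 55.7-fold above DNL against a floor of 3 counts over the group, and at least 39.6-fold and at least 28.3-fold without OA replicate 3. VIM, the filament protein of fibroblasts, and the fibroblast collagen COL1A2 were likewise at 0 in all WT and DNL libraries. VIM measured 3.79, 10.5 and 66.7 CPM in OA replicates 1, 2 and 3, so that KRT7 amounted to 12.5%, 14.1% and 12.3% of VIM. COL1A1 measured 19.3, 85.0 and 537 CPM in the same libraries and 0.399 to 0.990 CPM over the WT and DNL libraries. KRT7 amounted to 2.45%, 1.74% and 1.53% of COL1A1 in OA replicates 1, 2 and 3, a less even ratio. The replicate 1 ratios rest on 6 KRT7 counts. The part of fibroblast marker RNA in the KRT7 values was not tested. KRT14 followed a similar order, with 0, 6 and 9 counts. KRT19 and KRT37 did not, being lowest and about level in replicate 3, respectively.

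**Figure D3:**
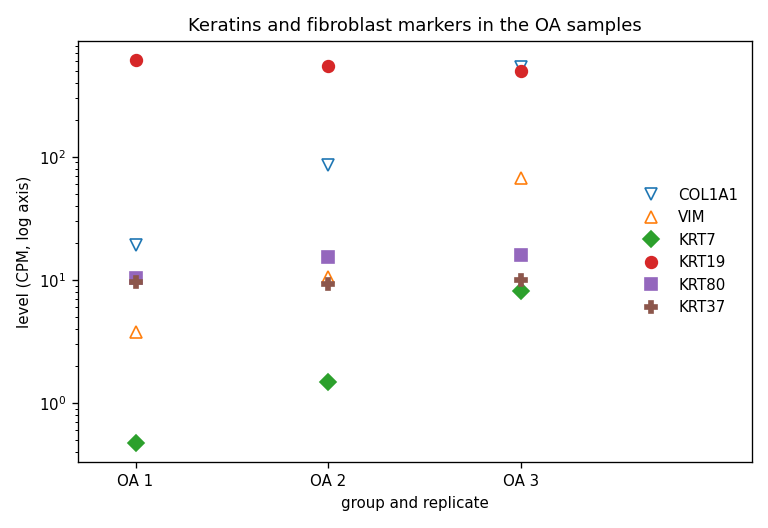
Levels (CPM, log axis) of 4 keratins (filled) and of the fibroblast markers COL1A1 and VIM (open) in OA replicates 1, 2 and 3. KRT7 goes from 0.474 to 8.19 CPM with the fibroblast markers, whereas KRT19 and KRT37 do not. KRT80 keeps the order of the markers over a narrower range, 10.3 to 15.9 CPM.

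KRT80, a type II keratin found in many epithelia, and KRT23, a type I keratin, separated the models. KRT80 (chromosome 12, 52168996 to 52192000) measured 3.54, 3.86 and 3.77 CPM in WT, 4.13, 3.06 and 3.57 CPM in DNL and 10.3, 15.4 and 15.9 CPM in OA. WT and DNL overlapped, and OA lay 3.72-fold above WT with no overlap (log2 fold change 1.90, SE 0.189). The KRT80 levels in OA lay in the order of the fibroblast markers, whose part was not tested. Its log2 fold change was 1.80 to 2.06 when each library was left out in turn. KRT23 (chromosome 17, 40922696 to 40937634) measured 3.64, 3.25 and 1.39 CPM in WT, 13.1, 12.6 and 8.77 CPM in DNL and 4.11, 3.86 and 3.21 CPM in OA. DNL lay 4.11-fold above WT with no overlap (log2 fold change 2.04, SE 0.296), and OA overlapped WT. None of the KRT23 31-base words occurs in another gene.

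SOX9 and EPCAM, the members that are not filament proteins, were higher in DNL. SOX9 (chromosome 17, 72121020 to 72126420) measured 328, 320 and 311 CPM in WT, 690, 662 and 633 CPM in DNL and 271, 247 and 244 CPM in OA. The groups did not overlap. DNL was 2.07-fold above WT (log2 fold change 1.05, SE 0.0474) and OA was below WT (log2 fold change -0.33, SE 0.0479), so that OA stood at a log2 fold change of -1.38 against DNL. EPCAM (chromosome 2, 47345158 to 47387601) measured 51.9, 49.7 and 60.9 CPM in WT, 94.9, 80.4 and 83.0 CPM in DNL and 69.4, 56.8 and 56.4 CPM in OA. DNL was 1.59-fold above WT with no overlap (log2 fold change 0.67, SE 0.0991), while OA and WT overlapped (log2 fold change 0.17, SE 0.102). KRT19 and SOX9, which are used together as duct markers, stood in opposite order in the models: KRT19 was higher in OA than in DNL and SOX9 higher in DNL than in OA, in all samples.

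**Figure D4:**
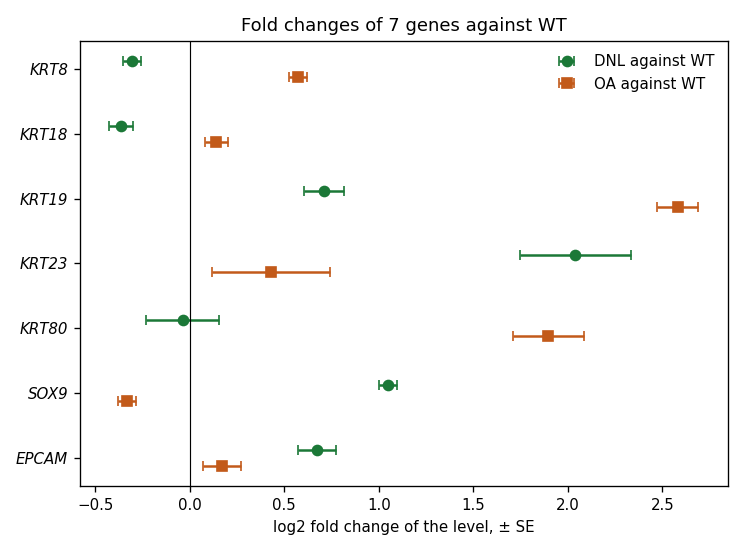
Log2 fold change with its SE of 7 members in DNL (circles) and OA (squares) against the same 3 WT samples, which the 2 comparisons share. KRT8 and SOX9 lie on opposite sides of 0 in the 2 models, and KRT19 lies above 0 in both, at 0.71 and 2.58.

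As a description only, at a Benjamini-Hochberg adjusted p under 0.05 in the edgeR quasi-likelihood fit, 5 members lay above and 2 below WT in DNL, 5 above and 1 below WT in OA, and 6 above and 3 below DNL in OA. Among all 13636 genes tested, 53.8% were called in DNL against WT, 60% in OA against WT and 62.8% in OA against DNL, and the members were chosen on these contrasts, so nothing is read from their counts. The same numbers of members did not overlap between groups, which held for 64.7%, 65.7% and 66.2% of all genes in these comparisons. Per kilobase, the order of levels in WT was KRT8, KRT18, SOX9, KRT19, EPCAM, KRT23, KRT80, KRT37 and KRT7, and 2 pairs of neighbours overlapped, KRT23 with KRT80 and KRT37 with KRT7. DNL had the same order with no overlap between neighbours. In OA the order was KRT8, KRT19, KRT18, SOX9, EPCAM, KRT37, KRT80, KRT7 and KRT23, with overlap between KRT19 and KRT18, KRT80 and KRT7, and KRT7 and KRT23. These orders use the principal transcript and depend on that choice. With exon union length, SOX9 was highest in DNL, at 168 CPM per kb against 125 for KRT18 and 94.8 for KRT8. KRT19 was then highest in OA, at 236 against 177 for KRT18 and 175 for KRT8.

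The genes closest in pattern to 3 members were found from the root mean square difference of log2 CPM over the 9 samples, each gene centred on its own mean. Closest to KRT19 were the linker histone H1-5 (0.132), the calcium-binding protein S100A6 (0.140) and the cell cycle factor MYBL2 (0.184), against a median of 1.16 over all genes. S100A6 measured 16.3 ± 0.430 CPM in WT, 25.5 ± 6.17 in DNL and 87.7 ± 3.11 in OA. Closest to KRT37 were NDRG4 (0.424), the epithelial transcription factor KLF4 (0.763) and the small heat shock protein HSPB8 (0.937), against a median of 2.73. KLF4 measured 0.447 ± 0.265 CPM in WT, 1.61 ± 0.250 in DNL and 21.4 ± 2.84 in OA. Closest to SOX9 were the lysosomal galactosidase GLB1 (0.0578), the valine catabolism enzyme HIBADH (0.0661) and PRXL2A (0.0703), against a median of 0.687. Group and sequencing depth differ among the 9 samples and enter every gene's pattern, so these distances describe the samples only.

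Other genes were followed in lists, tested in the same fit over all 13636 genes, where the background was 27.1% called higher and 26.8% lower in DNL against WT, 30.4% and 29.7% in OA against WT, and 30.9% and 31.9% in OA against DNL. With libraries scaled by their totals, 32.2% of calls were higher in DNL against WT (50.3% with TMM) and 66.1% in OA against DNL (49.2%), with the median of all genes shifted by -0.17 and 0.23 on the log2 scale. Of the 48 other keratin genes, 34 had no count in any library and 3 could be tested, KRT10, KRT15 and KRT17. All 3 were called higher in OA against WT. KRT15 and KRT17 passed the filter on low counts only through their OA counts, so their rise is a description and carries no p-value. In these lists, falls are given on the log2 scale. KRT15, a keratin of basal and progenitor cells, measured 0.378 ± 0.232 CPM in WT and 2.74 ± 0.509 in OA, and KRT17 0.167 ± 0.0191 and 1.34 ± 0.256 CPM. KRT10, a keratin of stratified epithelium, was 1.25-fold higher in both models (adjusted p = 0.0245 in DNL and 0.0234 in OA, edgeR). The KRT10 call against WT was lost in DNL without DNL replicates 1 or 3 or WT replicates 2 or 3 (adjusted p between 0.0537 and 0.123) and with scaling by totals (0.234), and in OA without OA replicates 2 or 3 or WT replicates 2 or 3 (0.05003 to 0.0893).

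Cytolinkers and desmosome proteins, which anchor keratin filaments, rose in 12 of 18 tested cases and fell in 3 in OA against WT, with a median log2 fold change of 0.27 against -0.03 for all genes. PLEC, which encodes the cytolinker plectin, rose from 274 ± 7.43 to 583 ± 18.6 CPM and fell by 0.23 in DNL, and JUP, plakoglobin, rose 2.10-fold. DSP, desmoplakin, fell by 0.30 and PPL, periplakin, by 0.51 there, and they fell by 0.17 and 0.22 in DNL. In DNL 6 rose and 6 fell (median 0.07 against -0.02). The desmosomal cadherin DSG2 rose from 284 ± 0.530 to 453 ± 19.8 CPM there and PERP rose 1.38-fold, while DST and PKP3 fell by 0.26 and 0.52. In OA, DSG2 rose 1.07-fold, PERP 1.44-fold and DST 1.69-fold. In OA against DNL 9 were higher and 6 lower. Of 10 lamins and other intermediate filament genes, 6 rose and the other 4 were not called in OA (median 0.36, also with VIM at its lower bound), while in DNL 2 rose and 3 fell. The nuclear lamin LMNA measured 219 ± 9.71 CPM in WT, 355 ± 24.8 in OA, where it rose, and 170 ± 15.6 in DNL, where it fell. INA, a neuronal filament protein, rose from 1.67 ± 0.343 to 4.27 ± 0.863 CPM in OA and fell to 0.270 ± 0.0667 CPM in DNL. NES, nestin, rose in both, 1.27-fold in OA and 1.64-fold in DNL. VIM, uneven across OA, was not called there (adjusted p = 0.0950, edgeR).

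Proteins found with keratins in Mallory-Denk bodies rose in OA. Of 11 tested, 9 rose and 1 fell (median log2 fold change 1.42), whereas 3 rose and 4 fell in DNL (median -0.005). In OA against DNL all 11 were higher. SQSTM1, which encodes p62, measured 308 ± 9.19 CPM in WT and 976 ± 23.4 in OA (adjusted p = 4.82e-12, edgeR), and 264 ± 7.12 in DNL, where it fell. The co-chaperone BAG3 rose from 51.5 ± 1.89 to 169 ± 19.4 CPM in OA and fell by 0.39 in DNL. CRYAB, a small heat shock protein, rose in OA and passed the filter on low counts only through OA. Its 3 OA levels were 3.24, 3.79 and 12.4 CPM for replicates 1, 2 and 3, highest where the fibroblast markers were highest, whose part was not tested. Without OA replicate 3 its log2 fold change was 5.06 in place of 5.89. NBR1, the autophagy receptor related to p62, fell by 0.31 in OA and by 0.54 in DNL on the log2 scale. UBB, which encodes ubiquitin, rose 1.39-fold in DNL and 1.66-fold in OA. UBB is built of near-identical repeats, so its count is uncertain.

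**Figure D5:**
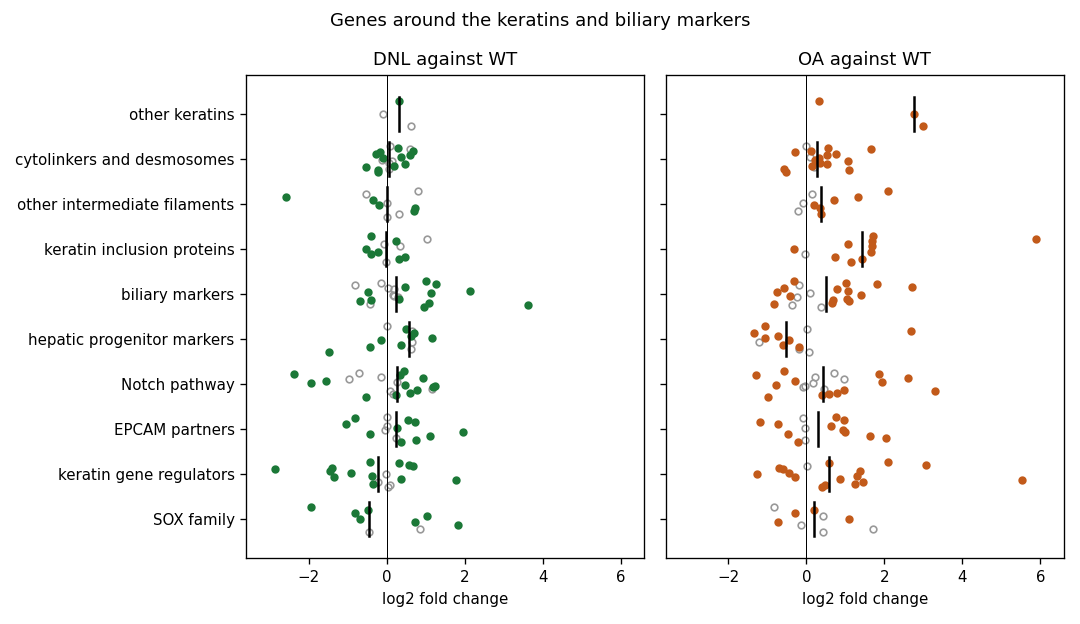
Log2 fold change of each tested gene of 10 lists in DNL (left) and OA (right) against WT, filled where called at an adjusted p under 0.05 and open where not, with a vertical bar at each list median. VIM, at 12.35 in OA with no count in WT, lies beyond the axis, and the inclusion protein median sits at 1.42 in OA and near 0 in DNL.

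The other genes of bile duct epithelium did not move as 1 block. Of 20 tested, 9 rose and 3 fell in DNL (median 0.25), and 10 rose and 5 fell in OA (median 0.51). CD24, a surface protein of duct and progenitor cells, rose 2.42-fold in DNL, from 23.4 ± 0.539 to 56.8 ± 4.25 CPM (adjusted p = 2.46e-08, edgeR), and it rose 3.51-fold in OA, to 81.9 ± 7.75 CPM. SPP1, osteopontin, rose 2.11-fold in DNL and 1.56-fold in OA. SOX4, which acts with SOX9 in duct development, fell in DNL from 144 ± 2.91 to 88.9 ± 3.66 CPM and rose in OA to 307 ± 14.9 CPM, so its group means ran in the opposite order to those of SOX9. SLC4A2, the anion exchanger that secretes bicarbonate, fell by 0.40 in DNL and rose 1.61-fold in OA. The tight junction gene CLDN4 rose from 37.1 ± 0.890 to 240 ± 13.7 CPM in OA (adjusted p = 1.76e-11, edgeR) and 1.37-fold in DNL. GGT1 and DCDC2 fell by 0.76 and 0.58 in OA, and GGT1 fell by 0.49 in DNL. Against DNL, 7 genes were higher and 8 lower in OA. ANXA4 was lower in OA than in DNL, at 33.7 ± 1.15 against 85.0 ± 3.35 CPM, and the trefoil peptide TFF3 at 0.323 ± 0.148 against 5.85 ± 1.05 CPM, while CLDN4 was 4.71-fold and SOX4 3.46-fold higher in OA. The 5 genes lower in OA against WT became 3 with scaling by totals, with the 6 samples alone, and without OA replicate 1, OA replicate 2 or WT replicate 3.

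Of 12 hepatic progenitor markers, 7 fell and 1 rose in OA (median -0.52), while in DNL 5 rose and 3 fell (median 0.56). DLK1, an imprinted gene of fetal liver, rose from 476 ± 6.45 to 773 ± 9.22 CPM in DNL and fell to 186 ± 13.4 CPM in OA. ICAM1 rose 2.25-fold in DNL and fell by 1.06 on the log2 scale in OA, and TNFRSF12A fell by 1.49 and LIN28B by 0.41 in DNL. LIN28B also fell in OA, by 0.19. The gene that rose in OA was CD44, at 0.790, 0.923 and 3.33 CPM in replicates 1, 2 and 3, in the order of the fibroblast markers, whose part was not tested. Without OA replicate 3 its log2 fold change was 1.83 in place of 2.68. In OA against DNL 3 were higher and 9 lower, with 2 higher without OA replicate 3, where CD44 was not called (adjusted p = 0.117, edgeR). Among the Notch pathway, which directs biliary fate, 9 of 20 rose and 4 fell in DNL and 8 rose and 5 fell in OA (medians 0.26 and 0.43). Those that rose in OA include the receptor NOTCH3, at 1.18, 5.14 and 25.5 CPM in replicates 1, 2 and 3, also in the order of the fibroblast markers, whose part was not tested. Its log2 fold change was 3.30 with all samples and 1.67 without OA replicate 3. The ligand JAG1 fell from 806 ± 13.1 to 277 ± 10.8 CPM in DNL (adjusted p = 1.36e-11, edgeR) and by 0.30 in OA. In DNL RFNG fell by 0.53, and the receptor NOTCH2 and the secretase subunit NCSTN rose 1.72-fold and 2.30-fold. In OA the target HEY1 rose from 1.41 ± 0.265 to 8.61 ± 0.734 CPM and NOTCH2 1.97-fold, while RFNG and the coactivator MAML2 fell by 0.98 and 0.77. HEY1 and MAML2 rose 1.91-fold and 1.39-fold in DNL. The target HES1 fell in OA, from 22.1 ± 2.49 to 8.93 ± 1.60 CPM, opposite to HEY1, and rose 1.27-fold in DNL. In OA against DNL 10 were higher and 6 lower.

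Of 14 tested partners of EPCAM, 7 rose and 3 fell in DNL and 7 rose and 4 fell in OA (medians 0.25 and 0.31). CLDN1, the claudin of hepatocyte tight junctions, fell from 314 ± 7.58 to 153 ± 8.39 CPM in DNL and to 188 ± 12.6 CPM in OA. CDH1, E-cadherin, rose from 51.1 ± 1.20 to 84.6 ± 5.73 CPM in DNL and fell to 22.5 ± 2.86 CPM in OA. SPINT1, a protease inhibitor that protects EPCAM from cleavage, rose 2.17-fold in DNL and 3.10-fold in OA. CD151 fell by 0.82 in DNL and CTNNA1 rose 1.56-fold in OA. In OA against DNL 8 were higher and 5 lower. The count of 4 that fell in OA against WT was 2 without OA replicate 3 and 2 without WT replicate 2.

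Transcription factors known to bind keratin gene promoters were mostly higher in OA. Of 17 tested, 11 rose and 5 fell in OA against WT (median 0.59), 5 rose and 8 fell in DNL (median -0.22), and 15 were higher and 2 lower in OA against DNL. ETS1 rose from 5.87 ± 0.267 to 48.7 ± 9.20 CPM and KLF6 from 360 ± 9.77 to 854 ± 68.1 CPM in OA, while FOS fell by 0.69 and the grainyhead factor GRHL1 by 1.26. In DNL, FOS and FOSB fell by 1.39 and 2.87, and ETS2 and ELF1 rose 1.58-fold and 1.26-fold. ETS1 also rose in DNL, to 8.77 CPM, and KLF6 fell there by 0.35. In OA, FOSB fell by 0.61 and ELF1 rose 1.51-fold. KLF4 was higher in both models, but it is named here for its likeness to KRT37, so no p-value is given for it. Of 9 other SOX genes tested, 3 rose and 4 fell in DNL and 2 rose and 2 fell in OA, against SOX9, which was higher in DNL and lower in OA. SOX5 was ordered like SOX9, at 41.1 ± 3.19 CPM in WT, 67.6 ± 2.54 in DNL and 24.7 ± 0.395 in OA. SOX13 fell by 0.82 in DNL and 0.29 in OA, SOX18 rose 2.05-fold in DNL, and SOX12 rose 1.15-fold in OA and fell by 0.47 in DNL. In OA against DNL 4 were higher and 3 lower.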

How the data were processed

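RNA from 9 HepG2 samples was sequenced from stranded, ribosomal RNA-depleted total RNA libraries, per the labels' protocols. The authors deposited estimated counts per gene, made with kallisto 0.48.0 after FastQC 0.11.9 on GRCh38, per the submitters' processing notes. For the gene annotation and the strand setting, nothing is stated in the labels or files read here. Of 19317 identifiers, 19316 matched a symbol, and positions come from GENCODE release 29.

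Estimated counts were rounded, filtered (filterByExpr) and scaled (TMM). In R 4.3.3, edgeR 4.0.16 gave quasi-likelihood p-values from 1 fit of all 9 samples over 13636 genes. A call is a Benjamini-Hochberg adjusted p under 0.05. CPM are TMM-scaled, ± is the SD over 3 samples, and SE is derived from the F statistic. Depths allow a floor of 3 counts at 0.0691 to 0.356 CPM, and intervals and floors cover counting error only, since no molecular identifiers are described. All replicate pairs differed by more than sampling noise (chi-square per degree of freedom 5.46 to 16.7). The procedure was also run on counts simulated from its own fitted spread with few changed genes. That setting is unlike these data, so nothing is drawn from it.

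The members and lists were chosen with earlier results of these data known. Named genes are the members, per list and comparison up to 4 called genes with the smallest adjusted p (2 per direction where both had calls), other keratins whose mean reached 1 CPM in any group, the 3 genes closest in pattern to KRT19, KRT37 and SOX9, and cell type markers. Some genes these rules name are not reported here. KRT38, CRYAB, NOTCH3 and HES1 were named after their values were seen, and values of named genes in the other model were added then too. Levels per kb use the principal transcript, with exon union length as an alternative added after seeing the data. Alternatives were RLE factors, library totals, no filter, DESeq2 1.42.0, limma 3.58.1 (voom), the 6 samples compared, a replicate block and each sample left out.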

Additional observations from a re-analysis of the deposited data

How the results depend on the processing

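The limits are 3 samples a group, 1 cell line, an OA group with the 2 shallowest libraries and fibroblast marker RNA, and low counts of KRT7 and KRT37. Over all alternatives run, no called value changed direction, and 30 counts of calls moved by more than 1.5 times while 1026 did not. Of the members' log2 fold changes, 20 moved by more than the replicate spread and 396 did not, the widest being KRT37, at 3.47 to 7.21 in DNL against WT and 7.02 to 10.76 in OA against WT, with the highest value without WT replicate 1. Among genes in the comparison that named them, calls were lost 16 times, all for KRT10 or SYNC. With scaling by library totals, DNL against WT had 0 other keratins and 1 other intermediate filament gene called higher and 5 EPCAM partners lower, OA against WT had 3 biliary markers lower, and OA against DNL had 2 cytolinkers or desmosome genes, 5 biliary markers and 2 EPCAM partners lower. Under the same scaling the log2 fold change of KRT8 in DNL against WT was -0.47 and that of EPCAM in OA against DNL was -0.27. With no filter on low counts, 5 other keratins were higher in OA against WT and 4 in OA against DNL. With the 6 samples compared alone, 3 biliary markers were lower in OA against WT, and limma-voom called 4 SOX genes higher there. With exon union length, added after seeing the data, KRT19 was 19.7%, 33.2% and 56.0% of type I members in WT, DNL and OA. For these moves the cause was not tested. Leaving out each sample in turn gave 0 to 1 other keratins and 1 to 2 other intermediate filament genes higher in DNL against WT. It gave 0 to 1 other intermediate filament genes, 3 to 5 biliary markers and 2 to 4 EPCAM partners lower in OA against WT, and 3 to 6 cytolinkers or desmosome genes, 1 to 3 other intermediate filament genes and 3 to 5 EPCAM partners lower in OA against DNL.

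Replicate numbers did not pair the samples: correlations of deviations were -0.0176 to 0.0534 for the same number and -0.063 to 0.0438 for different numbers. With a replicate block, 3644 genes were called higher and 3601 lower in DNL against WT, 4077 and 4022 in OA against WT, and 4169 and 4303 in OA against DNL.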
